A study of Mus musculus with 7 samples.

Results

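The miRNAs made from the hairpins mir-132, mir-212, mir-26a and mir-26b of the mouse were followed across p53-null soft tissue sarcoma cells with and without depletion of Rb. The rule that chose them uses what is known of them and no measured value: miR-132 and miR-212 have been reported to target Rb1, and the mir-26 hairpins lie in introns of the Ctdsp genes, whose products remove phosphates from Rb. Of the 696 mouse miRNAs on the array, 5 came from these hairpins, and 4 of these 5 were among the 252 miRNAs of the deposited table of normalized values. The hairpins mir-26a-1 and mir-26a-2 give the same main product, so the 5 hairpins have 9 different mature arms, of which miR-132-5p, miR-212-5p, miR-26a-1-3p and miR-26a-2-3p had no probe on the array.

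The retinoblastoma protein Rb, the product of Rb1, holds cells before DNA replication by binding E2F transcription factors, and cyclin-dependent kinases release E2F by phosphorylating Rb. CTDSP phosphatases reverse that phosphorylation, and the mir-26 hairpins in their introns can be made from the same transcripts as the phosphatases. miR-132 and miR-212 are usually made together from 1 primary transcript and are best known from neurons and blood vessels, where the transcription factor CREB induces them. A miRNA finds its targets mainly through its seed, the bases near its 5′ end that pair with a site in the 3′ UTR of a messenger RNA.

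All cells came from soft tissue sarcomas of p53 knockout mice and therefore lacked p53 in every group. Control primary cells (2 arrays) carried a Non-target shRNA and Rb-depleted primary cells (2 arrays) carried a single shRNA against Rb (shRb1), both brought in by a vector with puromycin selection and grown as monolayers with serum. Rb-depleted secondary cells (3 arrays) were the latter cells after growth as spheres in serum-free methylcellulose with B27, EGF and bFGF and 1 passage back in a monolayer. The series gives the replicates as independent experiments, and the age and number of the mice were not given in the sources used here. Per the paper, the spheres were picked by hand by size and shape before their cells were plated again. There were no arrays of control secondary cells. Growth as spheres, the picking of spheres, the serum-free medium and the later passage therefore cannot be told apart. What Rb depletion adds to them cannot be told apart either. The arrays measured no messenger RNA, so neither the depletion of Rb1 nor the identity of the sarcoma cells could be checked on them. In such bulk RNA, fewer cells that make a miRNA and less of it per cell cannot be told apart.

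The mature sequences below are from RefSeq (table built on GRCm38.p6), 5′ to 3′, with the seed, bases 2 to 8, in capitals. They show which members can share targets.
mmu-miR-132-3p: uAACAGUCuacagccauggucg
mmu-miR-212-3p: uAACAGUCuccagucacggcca
mmu-miR-26a-5p: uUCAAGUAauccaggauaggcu
mmu-miR-26b-5p: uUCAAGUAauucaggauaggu
mmu-miR-26b-3p: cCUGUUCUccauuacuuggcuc
The first pair shared 17 of 22 bases and differed only after the seed, at A10C, C14U, U17C, U20C and G22A (positions from the 5′ end, with the base of miR-132-3p first). miR-26a-5p and miR-26b-5p shared 19 of the 21 positions compared and differed at C11U and C21U. No other mouse miRNA of the sequence table had either of these seeds, so the members formed 2 seed families of 2 measured miRNAs each, with miR-26b-3p apart. How far a probe for one miRNA of such a pair also binds the other was not tested.

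The hairpins of the first family were neighbours. On the NCBIM37 build, with the GENCODE annotation, mir-212 lay at chr11:74986890-74986980 and mir-132 at chr11:74987167-74987267, both on the plus strand and 186 bases apart, and both inside intron 1 of the 3-exon long noncoding RNA gene 1700016P03Rik. The hairpins of the second family lay on 3 chromosomes, each on the strand of its host gene. mir-26b was at chr1:74440884-74440968 in intron 4 of Ctdsp1, mir-26a-1 at chr9:118940914-118941003 in intron 5 of Ctdspl, and mir-26a-2 at chr10:126432586-126432669 in intron 5 of Ctdsp2. Since mir-26a-1 and mir-26a-2 have the same 5p product, the array could not say which of these 2 loci a miR-26a-5p signal came from.

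The 3′ UTR of Rb1 (1709 bases, minus strand of chromosome 14) held 1 exact match to each seed on the strand of the transcript. GACTGTT, the reverse complement of the miR-132 and miR-212 seed, stood in the middle of the window chr14:73596099-73596117, and TACTTGA, that of the miR-26 seed, in the middle of chr14:73596226-73596244. These windows, printed below, have the match in capitals with 6 bases on either side and are shown because they are where either family could pair with Rb1.
Rb1, miR-132 and miR-212 seed match: caagcaGACTGTTaactat
Rb1, miR-26 seed match: atgtagTACTTGAaagtca
Ctdsp2, miR-26 seed match: tgctctTACTTGAtttgcc
The third window lay at chr10:126434616-126434634 in the 3′ UTR of Ctdsp2, the host of mir-26a-2. The 3′ UTRs of Ctdsp1 and Ctdspl held neither motif, and that of Ctdsp2 held no GACTGTT. Of 19915 annotated 3′ UTRs, 10.0% held GACTGTT and 8.59% held TACTTGA, and among the 8679 of 0.5 to 2 times the length of that of Rb1 the shares were 13.5% and 11.8%. Among the 5355 3′ UTRs of 0.5 to 2 times the length of that of Ctdsp2 (3489 bases), 19.2% held TACTTGA. A match is a description of the letters and does not show that a site was used in these cells.

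The arrays gave, for each miRNA, the total gene signal, a brightness summed over its probes, and whether the scanner software called it detected. Between 258 and 287 mouse miRNAs were detected per array, and the signal summed over the 252 miRNAs of the table lay between 432616 and 550498. The deposited values were log2 signals after quantile normalization, which gives every array the same distribution and so places each miRNA relative to the others. Before normalization, each miRNA of the 252 had a log2 difference from control primary cells. The median of these differences, called the median of the table below, was -0.26 for Rb-depleted primary and -0.46 for Rb-depleted secondary cells. The deposited values are relative to such shifts. The 4 arrays of primary cells and secondary replicate 1 lay on 1 slide, and secondary replicates 2 and 3 on another.

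miR-132-3p rose in Rb-depleted secondary cells relative to both groups of primary cells, with Rb-depleted primary cells in between on the deposited scale. It was the only member with a difference past the tests. Its deposited log2 values were 6.34 and 6.17 on the control primary arrays, 6.85 and 6.65 on those of Rb-depleted primary cells, and 7.15, 7.39 and 7.64 on those of Rb-depleted secondary cells. On this scale no array of one group overlapped with those of another, and the order of the groups was the same for every pair of arrays. A lack of overlap was also found in 57.5% (primary groups), 52% (secondary against control) and 51.2% (secondary against Rb-depleted primary) of all 252 miRNAs. The share with this order over the 3 groups was not counted. The rank of miR-132-3p among the 252 miRNAs, from the brightest, went from 149 and 154 in control primary cells to 117, 111 and 102 on those of Rb-depleted secondary cells.

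**Figure D1:**
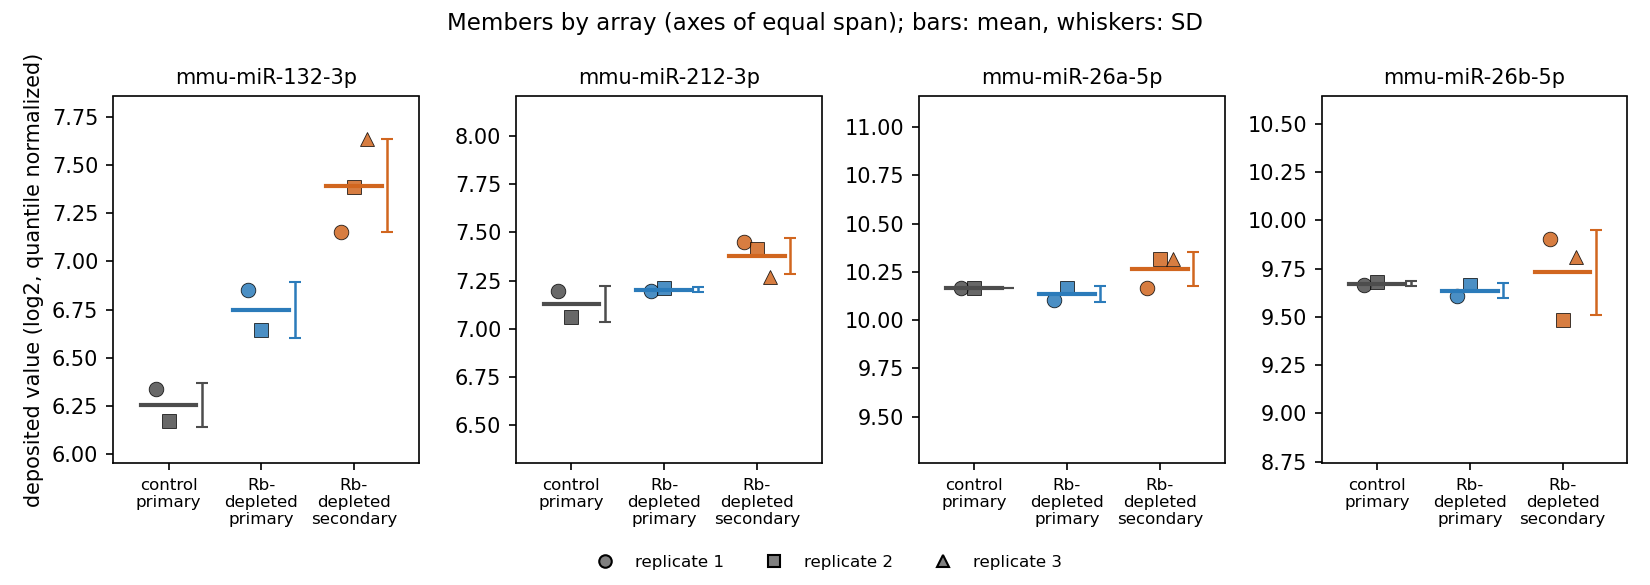
Deposited log2 values (quantile normalized, vertical axes of equal span) of the 4 members of the table in control primary (2 arrays), Rb-depleted primary (2) and Rb-depleted secondary cells (3), with a bar at each group mean and whiskers of 1 SD. miR-132-3p climbs from 6.17 and 6.34 to between 7.15 and 7.64 with no overlap, while the group means of the other 3 members differ by at most 0.25.

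Rb-depleted secondary cells had 1.14 more log2 units of miR-132-3p than control primary cells (SE 0.16, 95% interval 0.73 to 1.54), a 2.20-fold difference. The adjusted p was 0.0118 by limma with Benjamini-Hochberg adjustment over the 252 miRNAs, and 0.00106 by Dunnett's adjustment for the 2 comparisons with control cells. It was number 12 of the 252 by p and number 11 counted from the largest rise, an order that places falls last. For background, 22.6% of the 252 miRNAs passed this comparison at an adjusted p of 0.05, 13.1% as higher and 9.52% as lower. The call ended when either control array was left out, with an adjusted p of 0.0778 without replicate 1 (difference 1.22) and 0.0834 without replicate 2 (1.05), with the replicate number as a block (1.01, adjusted p = 0.0840) and with slide as a term (0.90, adjusted p = 0.0730). The slide term leaves the comparison to secondary replicate 1, the only one hybridized beside the primary cells, and its 7.15 was above all 4 primary arrays.

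Rb-depleted secondary cells also had more miR-132-3p than Rb-depleted primary cells, by 0.64 (SE 0.16, interval 0.24 to 1.05), a 1.56-fold difference with a limma adjusted p of 0.0465. Here 20.2% of all miRNAs passed, 12.7% as higher and 7.54% as lower. This call rested close to the threshold: it ended with any 1 of the 7 arrays left out (adjusted p from 0.0612 to 0.215, difference from 0.52 to 0.76), with slide as a term (0.40, adjusted p = 0.210), with the replicate block (0.52, adjusted p = 0.157), without normalization (0.52, adjusted p = 0.0739) and with all 312 miRNAs detected on at least 1 array (0.64, adjusted p = 0.0649).

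Between Rb-depleted primary and control primary cells, the difference in miR-132-3p was 0.49 (SE 0.18, interval 0.05 to 0.94), which missed the threshold with a limma adjusted p of 0.160 and a Dunnett p of 0.0604. The groups did not overlap, which was so for 57.5% of the 252 miRNAs in this comparison, 31% with Rb-depleted primary cells higher and 26.6% with them lower. At an adjusted p of 0.05, 1.59% of all miRNAs passed, 0.397% as higher and 1.19% as lower. Over the 3 groups together, miR-132-3p had an adjusted p of 0.0191 in the moderated F-test, which 43.3% of the miRNAs passed at 0.1. It missed that threshold with the replicate block (adjusted p = 0.127) and, narrowly, with slide as a term.

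Before normalization the total gene signal of miR-132-3p was 100.4 and 98.0 on the control primary arrays, 120.3 and 86.8 on those of Rb-depleted primary cells, and 130.0, 144.4 and 169.2 on those of Rb-depleted secondary cells. The error that the scanner software gave for these signals ran from 6.96 to 12.7. The secondary arrays were above all 4 primary arrays on this scale too, while the Rb-depleted primary arrays lay on either side of the control arrays. The difference between secondary and control cells was 0.57 (SE 0.19) with a limma adjusted p of 0.0398, and 1.03 relative to the median of the table. Of the 114 miRNAs that passed this comparison without normalization, 5 were higher, miR-132-3p among them, against 33 of 57 with the deposited values and 9 of 29 after scaling to the 75th percentile. Between Rb-depleted primary and control primary cells the unnormalized difference was 0.04 (SE 0.20), and 0.30 relative to the median of the table, so the size of the step between the primary groups depended on the normalization.

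miR-212-3p, which shares the seed, the intron and the host transcript of miR-132-3p, did not pass any comparison. Its deposited log2 values were 7.20 and 7.06 on the control primary arrays, 7.20 and 7.21 on those of Rb-depleted primary cells, and 7.45, 7.42 and 7.27 on those of Rb-depleted secondary cells. The 3 secondary arrays were above all 4 primary arrays, and the primary groups overlapped. The difference between secondary and control cells was 0.25 (SE 0.09, interval 0.03 to 0.47) with a limma adjusted p of 0.112, that between secondary and Rb-depleted primary cells 0.17 (SE 0.09, adjusted p = 0.214), and that between the primary groups 0.08 (SE 0.10, adjusted p = 0.647). Higher values without overlap, as seen for miR-132-3p and miR-212-3p between secondary and control cells, were found in 29.8% of all 252 miRNAs, and lower values without overlap in 22.2% (52% in all). Between secondary and Rb-depleted primary cells, where both miRNAs were again higher without overlap, the shares were 27% higher, 24.2% lower and 51.2% in all.

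The total gene signal of miR-212-3p gave another order. It was 175.3 and 165.9 on the control primary arrays, 155.0 and 130.0 on those of Rb-depleted primary cells, and 169.8, 150.5 and 141.4 on those of Rb-depleted secondary cells. Without normalization the difference between secondary and control cells was -0.15 (SE 0.15, adjusted p = 0.421), and 0.31 relative to the median of the table. The direction for miR-212-3p against control cells thus turned with the normalization, and that for miR-132-3p did not.

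Because both miRNAs were read on the same array, a factor that multiplies all signals of that array cancels from their difference in log2 total gene signal. Differences of deposited values also depend on the quantile normalization. On the deposited scale miR-132-3p minus miR-212-3p was -0.86 and -0.89 on the control primary arrays, -0.34 and -0.57 on those of Rb-depleted primary cells, and -0.29, -0.03 and 0.37 on those of Rb-depleted secondary cells. The gap between the partners was widest in the 2 control arrays and closed or reversed in secondary replicates 2 and 3, the arrays of the second slide. The mean was -0.87 ± 0.02 (SD, n = 2) in control cells and 0.01 ± 0.33 (SD, n = 3) in secondary cells, a difference of 0.89 with p = 0.1 in a two-sided exact permutation test, the smallest p that 2 arrays against 3 allow. The difference between the primary groups was 0.42 (exact permutation p = 0.333, the smallest for 2 against 2), and that between secondary and Rb-depleted primary cells 0.47 (exact permutation p = 0.2). Over the 6 such tests made for the pairs of partners, the lowest adjusted p by exact permutation was 0.60, and no design of this size could pass 0.05.

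In log2 total gene signal, where no normalization enters, miR-132-3p minus miR-212-3p was -0.80 and -0.76 on the control primary arrays, -0.37 and -0.58 on those of Rb-depleted primary cells, and -0.39, -0.06 and 0.26 on those of Rb-depleted secondary cells. Both Rb-depleted groups lay above the control arrays, by 0.31 and 0.72, with exact permutation p of 0.333 and 0.2. Secondary replicate 1, which shared its slide with the primary cells, lay among the Rb-depleted primary arrays on this scale, and replicates 2 and 3 lay above them. Signals of different miRNAs depend on their probes as well as on their amounts, so the sign of such a difference does not say which partner was more abundant.

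**Figure D2:**
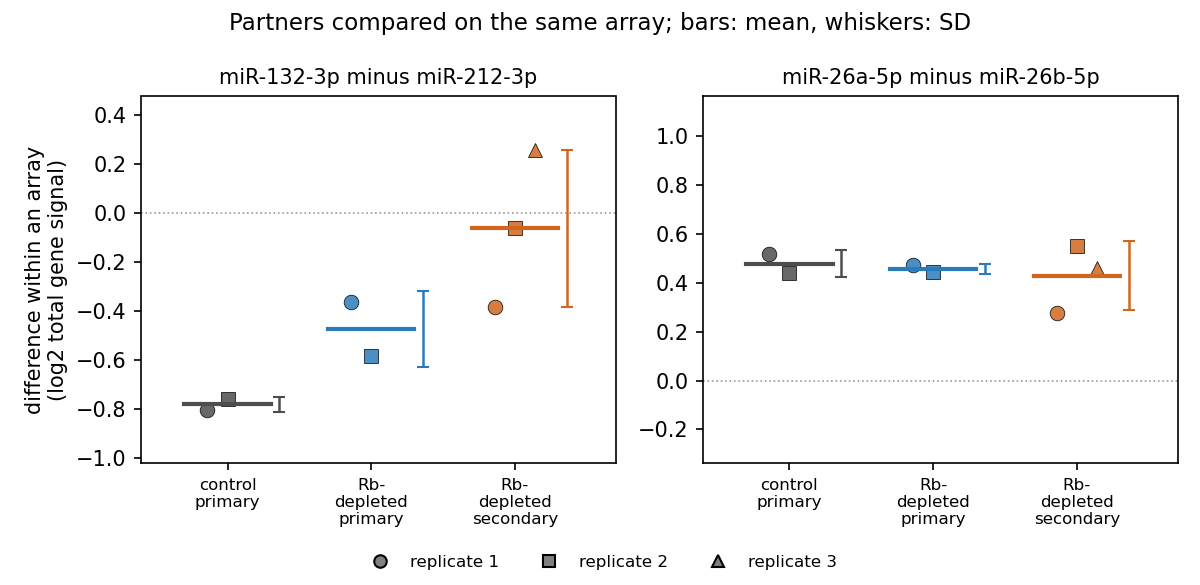
Difference in log2 total gene signal between 2 miRNAs of a seed family within each array, before normalization, for miR-132-3p minus miR-212-3p (left) and miR-26a-5p minus miR-26b-5p (right), with group means and 1 SD. The left panel goes from about -0.78 in control primary cells to -0.06 in Rb-depleted secondary cells, while the right panel lies between 0.27 and 0.55 on all 7 arrays.

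Each of the 4 members of the table was read by 2 probes of 10 spots each, and the median spot signal of each probe was compared without normalization. Both probes of miR-132-3p were higher in Rb-depleted secondary than in control primary cells, by 0.60 and 0.50 (log2), and than in Rb-depleted primary cells, by 0.59 and 0.52, without overlap. Between the primary groups the 2 probes differed by 0.01 and -0.01, with overlapping arrays. The median spot signal of its brighter probe was 92.9 and 92.2 on the control primary arrays, 109.9 and 79.1 on those of Rb-depleted primary cells, and 123.2, 138.6 and 160.4 on those of Rb-depleted secondary cells. The probes of miR-212-3p were lower in secondary than in control cells, by 0.19 and 0.09, and the brighter one carried 76.6% to 79.6% of the signal of that miRNA. The probes thus gave the same direction within each of these miRNAs for the comparisons of secondary cells with control cells.

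**Figure D3:**
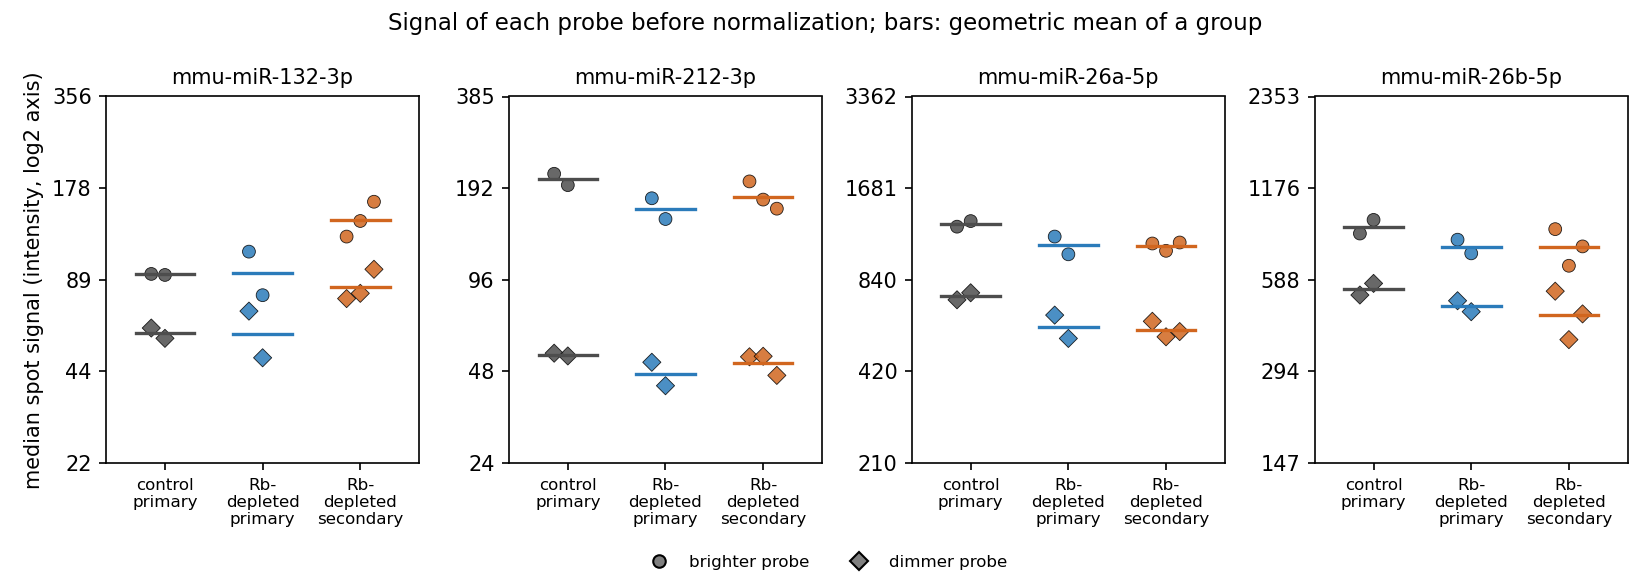
Median spot signal of each probe (intensity before normalization, log2 axis) for the 4 members of the table, with circles for the brighter and diamonds for the dimmer probe of each miRNA and bars at the geometric mean of a group. Both probes of miR-132-3p rise in the 3 Rb-depleted secondary arrays, whereas those of miR-212-3p, miR-26a-5p and miR-26b-5p have lower group means in both Rb-depleted groups than in control primary cells.

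The miR-26 family was the brighter of the 2 families and differed little between the groups. miR-26a-5p had deposited log2 values of 10.17 on both control primary arrays, 10.10 and 10.17 on those of Rb-depleted primary cells, and 10.17, 10.31 and 10.31 on those of Rb-depleted secondary cells. Equal values here came from the quantile normalization, since the total gene signals behind them differed (1275 and 1343 in control cells). It ranked between 46 and 49 of the 252 miRNAs on every array. The difference between secondary and control cells was 0.10 (SE 0.08, interval -0.10 to 0.30) with a limma adjusted p of 0.419.

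miR-26b-5p had values of 9.66 and 9.68 on the control primary arrays, 9.61 and 9.66 on those of Rb-depleted primary cells, and 9.90, 9.48 and 9.81 on those of Rb-depleted secondary cells. The secondary arrays spread on both sides of the primary arrays, with an SD of 0.22 against 0.01 in control cells. Its difference between secondary and control cells was 0.06 (SE 0.14, limma adjusted p = 0.797), and between the primary groups -0.04 (SE 0.15, adjusted p = 0.933). Neither miR-26 passed the F-test, with adjusted p of 0.388 for miR-26a-5p and 0.818 for miR-26b-5p.

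Within the arrays the distance between the 2 miR-26 miRNAs was close to constant in primary cells and varied among the secondary arrays. On the deposited scale miR-26a-5p minus miR-26b-5p was 0.50 and 0.48 on the control primary arrays, 0.49 and 0.50 on those of Rb-depleted primary cells, and 0.26, 0.83 and 0.51 on those of Rb-depleted secondary cells. The secondary mean of 0.53 ± 0.29 (SD, n = 3) differed from that of control cells by 0.04 (two-sided exact permutation p = 0.8). In log2 total gene signal miR-26a-5p minus miR-26b-5p was 0.52 and 0.44 on the control primary arrays, 0.47 and 0.44 on those of Rb-depleted primary cells, and 0.27, 0.55 and 0.46 on those of Rb-depleted secondary cells. Secondary replicate 1 had the lowest of these differences, and the other 6 arrays lay between 0.44 and 0.55. On this scale the group means differed by 0.05 or less, with exact permutation p of 0.9 or more. Without normalization both miRNAs were lower in each Rb-depleted group than in control cells, by 0.20 to 0.27 (log2), and 0.03 to 0.24 higher relative to the median of the table, so their sign against control cells depended on the scaling.

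miR-26b-3p, the other arm of mir-26b, was not detected on any of the 7 arrays, with a total gene signal of 0.1 throughout, while the 5p arm of the same hairpin gave 691 to 990. The lowest signal of any detected miRNA lay between 3.38 and 5.37 depending on the array. Its 4 probes had 5 spots each. This says that the signal was below detection with these probes, not that the arm was absent.

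**Figure D4:**
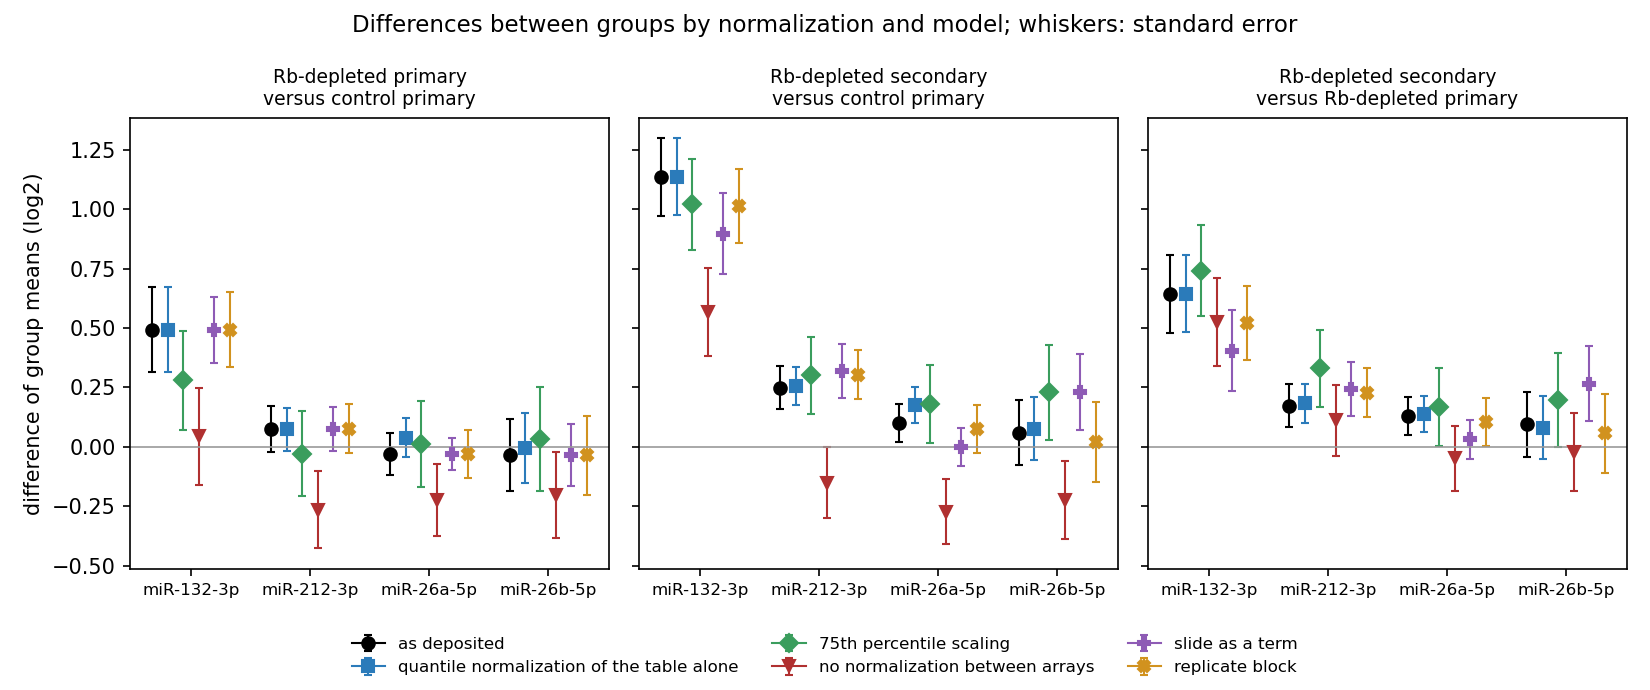
Difference of group means (log2) with its standard error for the 4 members in the 3 comparisons, under the deposited values, 3 other ways of normalization and 2 other models. The value of miR-132-3p stays above 0 in every setting drawn. Without normalization it is 0.57 between secondary and control cells, but only 0.04 (SE 0.20) between the primary groups. The other 3 members without normalization lie below 0 in both comparisons with control cells (-0.15 to -0.27).

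Counted together, 0 of the 4 members were called between the primary groups, and 1 of 4 in each comparison of secondary cells, miR-132-3p in both. Over all 252 miRNAs the shares called were 1.59% between the primary groups, 22.6% between secondary and control cells and 20.2% between secondary and Rb-depleted primary cells, so a count of 1 in 4 is near the background. The median difference of the 4 members was 0.02 (log2) between the primary groups, 0.17 between secondary and control cells and 0.15 between secondary and Rb-depleted primary cells, where the median of all 252 miRNAs was 0.01, 0.03 and 0.02.

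Other miRNAs that have been reported to target Rb1 were taken as context: the miR-17 seed family (miR-17, miR-20a, miR-20b, miR-93, miR-106a and miR-106b), part of which arises from clusters that E2F factors switch on, and miR-335-5p, miR-675-5p and miR-215. Of these 9, 8 were on the array and 5 in the table, and 0 of the 5 passed any of the 3 comparisons, which 1.59% (primary groups), 22.6% (secondary against control) and 20.2% (secondary against Rb-depleted primary) of all 252 miRNAs passed. miR-335-5p, miR-675-5p and miR-215-5p were not detected on any array. On the deposited scale the 5 measured members of the miR-17 family were all higher in Rb-depleted primary than in control primary cells, as were 127 of all 252 miRNAs, by a median of 0.16 (log2) against 0.01 over all 252 miRNAs, with adjusted p of 0.232 or more. In mean total gene signal, before normalization, 4 of the 5 were lower in Rb-depleted primary cells, all but miR-20a-5p. The median difference of the 252 miRNAs before normalization was also negative in this comparison, at -0.26 (log2). As a mean share of the summed signal of the 252 miRNAs each of the 5 was higher, such as miR-17-5p with 0.0271% against 0.0242%. Between secondary and Rb-depleted primary cells 1 of the 5 was higher, as were 135 of all 252 miRNAs. The median of the 5 in that comparison was -0.05, against 0.15 for the 4 members and 0.02 over all 252 miRNAs.

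miR-17-5p came closest to the thresholds, with 6.68 and 6.79 on the control primary arrays, 7.08 and 6.96 on those of Rb-depleted primary cells, and 6.57, 6.88 and 6.74 on those of Rb-depleted secondary cells. Rb-depleted primary cells lay above both other groups without overlap, by 0.28 over control cells (SE 0.12, limma adjusted p = 0.232) and by 0.29 over secondary cells (SE 0.11, adjusted p = 0.121). Such a lack of overlap was found in 31% and 24.2% of all 252 miRNAs in these directions. Before normalization the primary groups overlapped, with total gene signals of 141.5 and 112.5 in Rb-depleted primary cells against 124.4 and 139.0 in control cells.

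The miRNAs whose deposited values ran most alike to each member over the 7 arrays are given as a description, since the arrays share their groups, slides and normalization. Closest to miR-132-3p were miR-378a-3p (Pearson r = 0.95), miR-1839-3p (0.94) and miR-29b-3p (0.94), of which miR-378a-3p was 2.58 (log2) higher in secondary than in control cells (SE 0.41, limma adjusted p = 0.0145). The mean deposited log2 value of miR-378a-3p in control cells was 2.09, against 6.26 for miR-132-3p, so its difference started from a weak signal. Closest to miR-212-3p were miR-125a-5p (0.94), miR-1944 (0.93) and miR-30d-5p (0.87). For miR-26a-5p they were miR-33-5p (0.89), miR-19a-3p (0.85) and miR-30e-5p (0.81), and for miR-26b-5p they were miR-99a-5p (0.97), miR-10a-5p (0.96) and miR-22-5p (0.90). None of the members was among the 3 closest to its partner: r was 0.74 between miR-132-3p and miR-212-3p and -0.12 between miR-26a-5p and miR-26b-5p.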

How the data were processed

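The authors hybridized Cy3-labelled RNA to 1-colour Agilent mouse miRNA arrays (8x15K, Release 15.0) and deposited, for each array, the scanner output with intensity values of spots, probes and miRNAs (total gene signal). Their deposited table holds log2 values, quantile normalized in GeneSpring, for miRNAs detected on all 7 arrays. Quantile normalization of the log2 signals of 718 features gave that table to within 3.24e-06, and its 11 control entries were left out. The Feature Extraction version was 10.7.3.1 per the labels and 11.0.1.1 per the file headers.

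A limma 3.58.1 model (R 4.3.3) with 3 group means was fitted to all 252 miRNAs of the 7 arrays, at an adjusted p of 0.1 (F-test) and 0.05 (pairs of groups). The procedure was tested on simulated data. Within-array differences were compared by exact permutation with numpy 2.4.6 (Python 3.11.15). The number of arrays limits the precision. Seed matches and loci were read from NCBIM37 with GENCODE annotation, and sequences from RefSeq. Named were all members, the context list and the 3 miRNAs most correlated with each member. The members and lists were chosen with earlier results of these data known.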

Additional observations from a re-analysis of the deposited data

Results flagged for a closer look

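The difference of miR-132-3p from control cells was 0.64 (log2) larger in Rb-depleted secondary than in Rb-depleted primary cells, which the limma comparison of these groups passed (adjusted p = 0.0465, 252 miRNAs tested). The 3 secondary arrays were above both primary arrays, and 2 of the 3 lay on a slide of their own. With slide as a term the comparison rests on secondary replicate 1 alone (0.40, adjusted p = 0.210), and the part of the slide in the result was not tested.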

How the results depend on the processing

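For miR-132-3p the difference between secondary and control cells kept its sign in all 14 alternatives (0.57 to 1.26) and the adjusted p ran from 0.00412 to 0.0840. It missed 0.05 with slide as a term (0.90), with the replicate block and in the fits without either control array, and passed in the other 10. The replicate number from the titles was also used as a block. Deviations of arrays with the same number correlated between -0.14 and 0.13. The 2 arrays of a primary group deviate by equal amounts in opposite directions, so these correlations cannot decide whether the numbers pair the arrays. With the replicate block miR-132-3p had 1.01 between secondary and control cells (adjusted p = 0.0840), 0.52 between secondary and Rb-depleted primary cells (adjusted p = 0.157) and an F-test adjusted p of 0.127. The block left 6 calls in the F-test, 0 between the primary groups (44 at an unadjusted p under 0.05), 4 between secondary and control cells and 0 between secondary and Rb-depleted primary cells (68 unadjusted). With slide as a term these limma calls were 24, 0 (62 unadjusted), 6 and 0 (67 unadjusted), and the F-test adjusted p of miR-132-3p was 0.10, just above the threshold.

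The comparison of miR-132-3p between secondary and Rb-depleted primary cells also missed 0.05 without normalization (0.52) and with all 312 miRNAs detected on at least 1 array (0.64, adjusted p = 0.0649), and was 0.40 with slide as a term. The primary groups gave 4 calls with the deposited values, 0 after scaling to the 75th percentile (42 at an unadjusted p under 0.05), 27 without normalization and 8 with all 312. Secondary against control cells gave 57, 29 after scaling and 114 without normalization. The cause of these changes was not tested.

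With 1 array left out, calls ran from 33 to 124 in the F-test, 0 to 22 between the primary groups, 1 (without control replicate 1) to 74 between secondary and control cells and 2 to 66 between secondary and Rb-depleted primary cells. For miR-132-3p the F-test adjusted p ran from 0.0302 to 0.0859, and its differences from 0.39 to 0.59, 1.01 to 1.26 and 0.52 to 0.76. The within-array difference of miR-132-3p and miR-212-3p changed by 0.31 to 0.53 between the primary groups, 0.71 to 1.04 between secondary and control cells and 0.29 to 0.62 between secondary and Rb-depleted primary cells. That of miR-26a-5p and miR-26b-5p ran from -0.0036 to 0.013, -0.11 to 0.18 and -0.11 to 0.17, and was -0.021, -0.049 and -0.028 in total gene signal, against 0.0048, 0.040 and 0.035 as deposited.

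The uncalled differences of the other members changed sign in several settings. Between the primary groups, scaling gave -0.029 for miR-212-3p, 0.011 for miR-26a-5p and 0.032 for miR-26b-5p, quantile normalization of the table alone gave 0.038 for miR-26a-5p, and no normalization gave -0.26 for miR-212-3p. Without normalization secondary against control cells gave -0.15 for miR-212-3p, -0.27 for miR-26a-5p and -0.22 for miR-26b-5p, and secondary against Rb-depleted primary cells gave -0.049 for miR-26a-5p and -0.021 for miR-26b-5p. Without secondary replicate 1, miR-26b-5p was -0.027 against control cells. The planned floor of 4 for members outside the table was not run, since the only such member was detected on no array and had no fold to compute.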
